A study of Bos taurus with 16 samples.

Results

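The genes described here set calves born from in vitro-produced embryos (IVP) apart from calves of the multiple ovulation and embryo transfer group (MOET) in opposite ways in 2 organs, with IVP levels above MOET levels in the liver and below them in skeletal muscle. They were chosen by measured values. A gene needed a mean of at least 2 CPM (the deposited counts scaled to the total of their library) in each organ, and its level was compared as log2(CPM+0.5). All 4 IVP calves had to lie above all 3 MOET calves used in liver, with a mean difference of at least 0.4, and below all of them in muscle, with a mean difference of -0.2 or lower. Of the 27607 gene IDs, 9170 reached the CPM minimum in both organs. Of those that met the pattern, 23 were set aside by name, 12 of them ribosomal protein genes with RPL or RPS symbols and 4 with mitochondrial MRPL or MRPS symbols, which left 100 members. The tables of the paper give a name to 75 of the members, and the other 25 are known here by Ensembl ID alone.

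RNA was sequenced from 16 libraries, 1 from the right liver lobe and 1 from the semitendinosus muscle of each of 8 male Holstein calves. The 4 IVP embryos came from oocytes collected by ovum pick-up and fertilized and cultured in serum-free media, and the 4 MOET embryos were flushed from superovulated and inseminated donors. All embryos were transferred to recipients, and the calves were kept alike until they were euthanized. The calves are named by their numbers in the labels. The IVP calves 3208, 3209, 5833 and 5841 were 103, 103, 103 and 98 days old, and the MOET calves 3217, 3218 and 5932 were 102, 102 and 104 days old. The fourth MOET calf, 3213, was 144 days old. All IVP calves had the same dam. Calves 3208 and 3209 shared sire and dam with MOET calves 3217 and 3218, whereas IVP calves 5833 and 5841 had another sire, and MOET calves 5932 and 3213 had other parents. Embryo origin and parentage therefore cannot be fully told apart.

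Many of the named members carry out tasks that nearly every cell needs. They include factors that load initiator tRNA on the ribosome, charge or modify tRNA, recognize splice sites, import proteins into mitochondria, assemble respiratory complexes, remodel chromatin, tag proteins with ubiquitin and sort membrane vesicles. Liver and muscle both rely on these functions but put them to different use, the liver to make and secrete plasma proteins and to synthesize metabolites such as creatine, and the muscle to maintain myofibres.

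Liver libraries held 22758137 to 24667728 counts and muscle libraries 23677247 to 25626474. Marker genes of hepatocytes (APOA1, APOA2 and TTR) summed to at least 7988 CPM in every liver library used and to at most 34.4 CPM in muscle, and fast-fibre markers to at least 40333 CPM in muscle and at most 0.649 CPM in liver. The authors had adjusted the counts for age. The library of calf 3213 lay nearly at the mean of the other MOET calves, with a median absolute log2 deviation of 0.0214 in liver and 0.0134 in muscle, where the other calves deviated from the rest of their group by at least 0.0971 and 0.119. It was left out of the choice and of the means here, but kept in the fitted models.

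A pair of libraries stood apart in the members. In liver, IVP calf 5841 was the highest of the 7 calves in 99 of the 100 members, whereas it was the highest in 29.0% of all expressed genes. It was also the highest in 94.5% of the 768 genes that met the liver thresholds whatever their muscle values. In muscle, MOET calf 5932 was the highest in 67 of the members, in 26.8% of all expressed genes and in 62.1% of the 523 genes that met the muscle thresholds. Without calf 5841, the median liver difference over the 100 members was 0.39 rather than 0.56, and 48 of them still differed by 0.4 or more in liver. Without calf 5932, the median muscle difference was -0.29 and 82 members still reached -0.2. With both calves left out, 50 members met both thresholds on the differences.

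**Figure D1:**
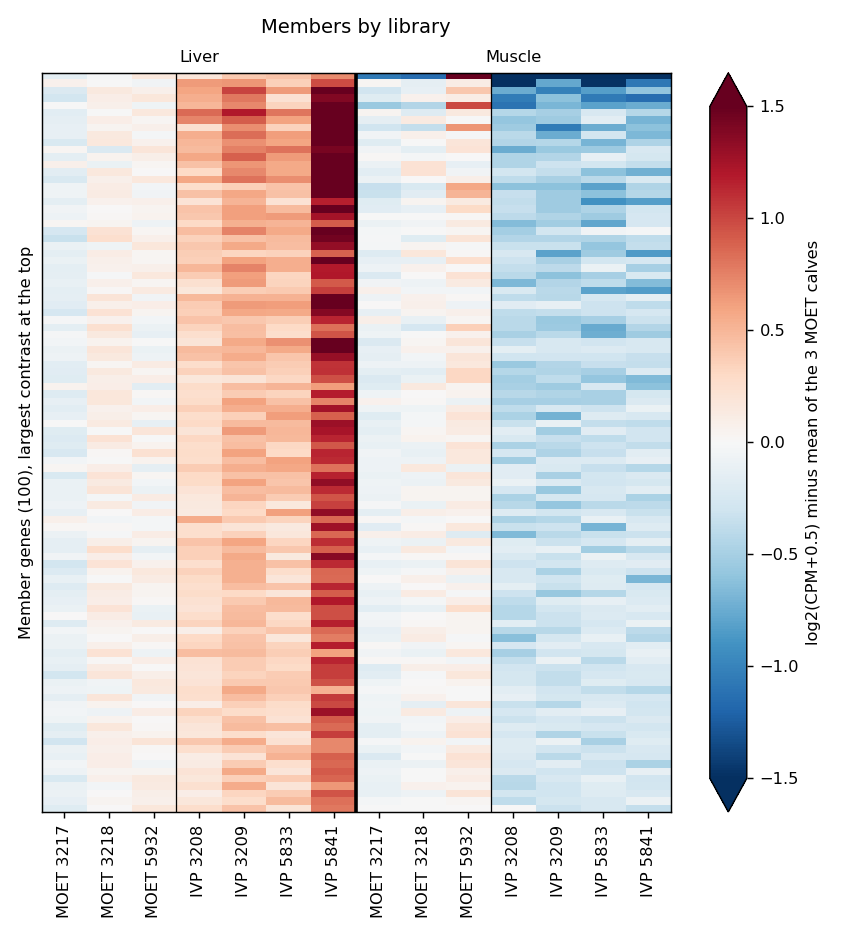
Level of the 100 members (one line each, ordered by the difference in liver minus the difference in muscle) in the 7 calves used, as log2(CPM+0.5) minus the mean of the 3 MOET calves of the same organ, with liver on the left and muscle on the right and the colour scale ending at 1.5 in both directions. The column of IVP calf 5841 in liver is the darkest, as it was the highest calf in 99 of the 100 members.

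The IVP and MOET values below served to choose the members, so they describe them and are not tested. The mean log2(CPM+0.5) over the members in liver was 4.91, 5.10, 5.00 and 5.76 in IVP calves 3208, 3209, 5833 and 5841, and 4.47, 4.67 and 4.63 in MOET calves 3217, 3218 and 5932. The muscle values were 4.53, 4.51, 4.54 and 4.56 for the IVP calves, and for the MOET calves 4.82, 4.90 and 5.06. The group means were 5.19 ± 0.38 (SD, n = 4) and 4.59 ± 0.11 (SD, n = 3) in liver, and 4.54 ± 0.020 (SD, n = 4) and 4.93 ± 0.12 (SD, n = 3) in muscle. Calf 5841, highest in liver, was also the highest of the IVP calves in muscle, so the order of the IVP calves in liver was not mirrored in muscle.

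The member differences ran from 0.41 to 1.22 in liver, with a median of 0.56, and from -2.10 to -0.20 in muscle, with a median of -0.32. Over all 9170 expressed genes the medians were -0.11 in liver and 0.03 in muscle. In linear terms the median member was 1.48 times as high in IVP as in MOET liver, and 1.24 times as high in MOET as in IVP muscle. Scaling by trimmed means (TMM) in place of library totals raised the median of all expressed genes by 0.16 in liver. Relative to that median the members lay 0.68 higher by library totals and 0.67 higher by TMM, and in muscle 0.35 lower by both.

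By these thresholds 8.38% of the expressed genes were higher in IVP liver, 5.7% were lower in IVP muscle and 1.34% were both, and the members are the last of these classes less the 23 names set aside. The mirror-image class, lower in IVP liver and higher in IVP muscle, held 279 genes. By contrast, 15 genes were higher in both organs and 29 lower in both at the same thresholds.

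**Figure D2:**
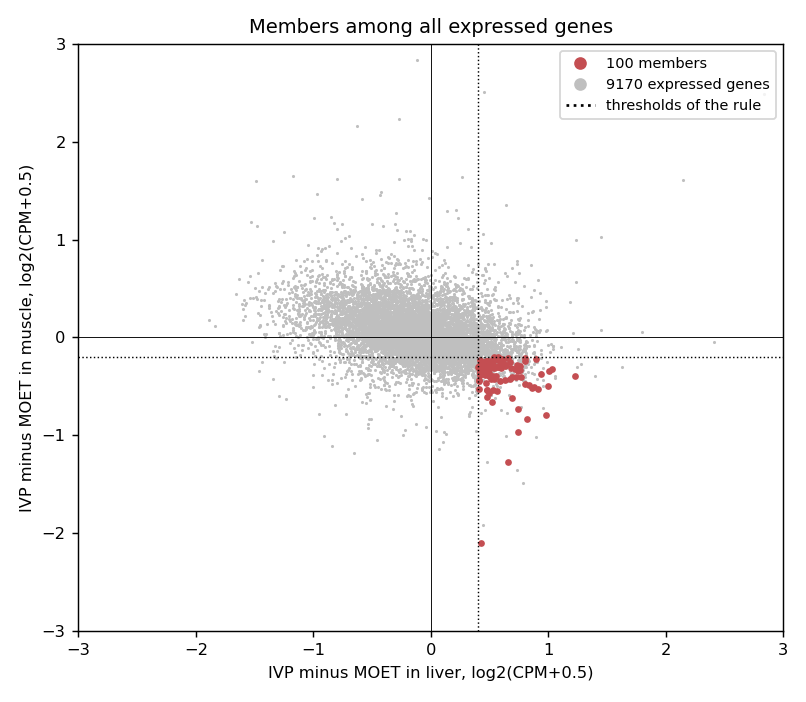
Difference between IVP and MOET calves (means of log2(CPM+0.5), 4 IVP and 3 MOET calves) in liver on the horizontal and in muscle on the vertical axis for the 9170 expressed genes in grey and the 100 members in red, with dotted lines at the thresholds 0.4 and -0.2 (3 genes lie outside the axes). PHGDH is the lowest red point, at 0.43 in liver and -2.10 in muscle.

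Among members that serve protein synthesis, TPT1 (ENSBTAG00000010156) encodes the translationally controlled tumour protein. Its CPM in liver was 3062, 3417, 3521 and 4133 in IVP calves 3208, 3209, 5833 and 5841, and 2397, 2517 and 2143 in MOET calves 3217, 3218 and 5932, the order of calves kept from here on. In muscle it had 4489.7, 4311, 3957 and 3742 CPM in IVP and 4771, 5646 and 4759.6 CPM in MOET calves. Every IVP calf was above every MOET calf in liver and below in muscle, by 0.58 and -0.29 in the means on the log2 scale. TPT1 has many processed copies in mammalian genomes, and reads shared with such copies make its level uncertain.

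EIF2S2 (ENSBTAG00000005969) encodes the beta subunit of initiation factor eIF2, which brings the initiator tRNA to the ribosome. In liver it had 69.2, 76.3, 69.2 and 171 CPM in IVP and 48.4, 55.1 and 49.0 CPM in MOET calves. In muscle the values were 129, 113, 107 and 122 CPM and 129.8, 145 and 232 CPM. Calf 5841 in liver and MOET calf 5932 in muscle were far above the others of their groups, and in muscle the lowest MOET calf exceeded the highest IVP calf only narrowly. The differences of the means were 0.80 in liver and -0.48 in muscle.

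CARS1 (ENSBTAG00000010777), the cysteinyl-tRNA synthetase that charges cysteine tRNA, had 30.4, 35.6, 27.2 and 71.3 CPM in IVP liver and 21.4, 22.5 and 20.4 CPM in MOET liver. Its muscle values were 24.4, 32.9, 30.4 and 31.7 CPM in IVP and 36.2, 39.3 and 106 CPM in MOET calves. The groups did not overlap in either organ, and calves 5841 and 5932 were again well above the rest of their groups. The difference of the means was 0.82 in liver and -0.84 in muscle. TRMT61A, the catalytic subunit of the enzyme that methylates adenosine in tRNA, had the same calves at the top, with 13.9, 13.4 and 27.6 CPM in MOET muscle and 11.8, 8.09, 10.1 and 11.1 CPM in IVP muscle. TSR3, which modifies 18S ribosomal RNA, differed by 0.76 in liver and -0.33 in muscle. POP7, a subunit of the ribonucleases P and MRP, differed by 0.44 and -0.31, and was the member in which IVP calf 3209 and not 5841 was the highest in liver, at 26.6, 32.8, 29.3 and 31.9 CPM in the IVP calves.

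PHGDH (ENSBTAG00000039719), the first enzyme of serine synthesis from glucose, had 141, 164, 168 and 204 CPM in IVP liver and 113, 122.995 and 139 CPM in MOET liver. In muscle it had 1.68, 2.15, 2.72 and 1.79 CPM in IVP and 4.74, 4.45 and 50.2 CPM in MOET calves. Its muscle difference of -2.10, the farthest from 0 of all members, rested in good part on calf 5932, while the other MOET calves were also above all IVP calves. GAMT (ENSBTAG00000004112), which makes creatine by methylating guanidinoacetate, had 768, 889, 901 and 1405 CPM in IVP liver and 618, 695 and 750.1 CPM in MOET liver. Its muscle values were 129, 115, 87.0 and 84.9 CPM in IVP and 160.1, 147 and 148 CPM in MOET calves, and calf 5932 did not stand out. The differences were 0.49 in liver and -0.57 in muscle.

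Calf 5932 also had high levels in muscle of 3 genes of serine synthesis and tRNA charging that are no members. PSPH, which completes serine synthesis, had 2.92, 2.90 and 15.9 CPM in MOET and 2.22, 2.63, 1.06 and 1.43 CPM in IVP muscle, and SARS1, the seryl-tRNA synthetase, had 55.7, 60.5 and 195 CPM and 45.5, 45.3, 42.1 and 44.8 CPM. GARS1, the glycyl-tRNA synthetase, had 32.4, 33.7 and 92.9 CPM in MOET and 28.8, 26.8, 25.6 and 33.1 CPM in IVP muscle. In all of them calf 5932 was the highest. In liver, GARS1 differed by -0.15, SARS1 by 0.39 and PSPH by 0.73, and PSPH overlapped between the groups, with 16.8, 18.5, 4.84 and 28.5 CPM in IVP and 5.98, 7.30 and 14.2 CPM in MOET calves. These 3 genes were named after their values were seen. They do not stand for their functions as a whole. In the list of serine and one-carbon genes described below, the 7 that are no members had a median muscle difference of 0.14, with 3 below 0. For the 5 such tRNA synthetase genes it was -0.18, with 4 below 0.

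**Figure D3:**
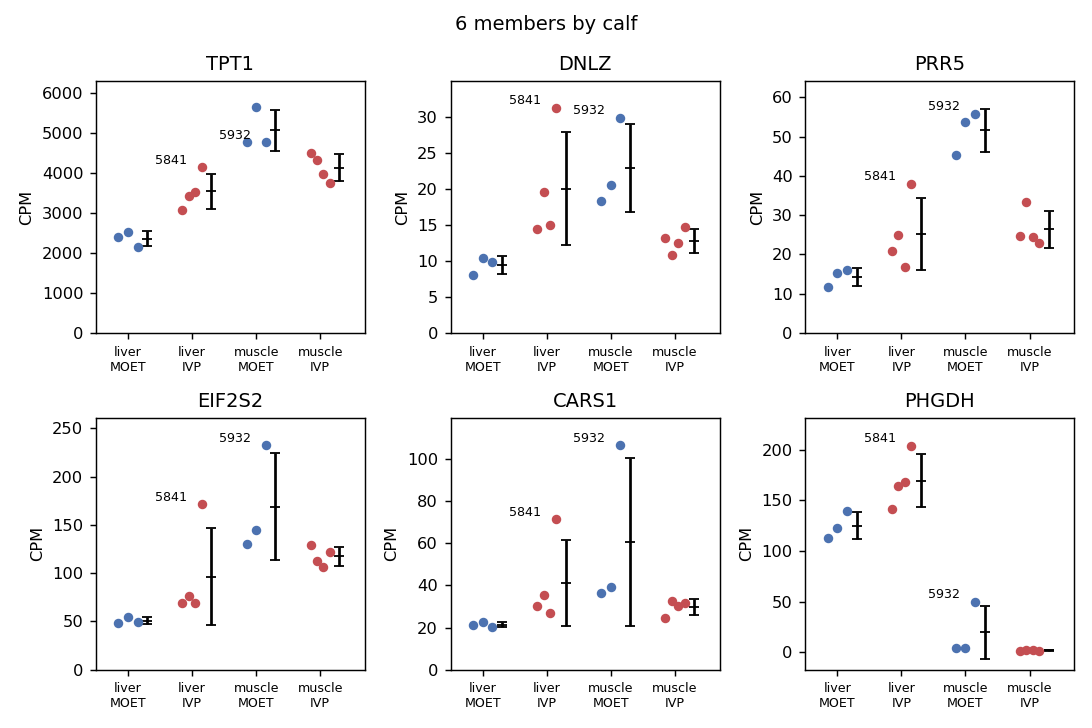
CPM (linear axis) of TPT1, DNLZ, PRR5, EIF2S2, CARS1 and PHGDH in each calf, MOET calves in blue (n = 3 per organ) and IVP calves in red (n = 4), with the mean and SD of each group in black. Calves 5841 in liver and 5932 in muscle are marked, and they carry the highest values of EIF2S2 and CARS1 in their groups.

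Members of the mitochondria included UQCC2 (ENSBTAG00000054726), an assembly factor of respiratory complex III, with 25.4, 29.0, 27.1 and 60.6 CPM in IVP liver and 15.2, 19.99 and 18.7 CPM in MOET liver. In muscle it had 64.0, 64.9, 53.7 and 63.0 CPM in IVP and 76.8, 87.2 and 99.1 CPM in MOET calves. DNLZ (ENSBTAG00000012880), which keeps the mitochondrial HSP70 chaperone soluble, had 14.4, 19.5, 14.9 and 31.2 CPM in IVP liver and 8.04, 10.4 and 9.91 CPM in MOET liver. All 3 MOET calves exceeded the IVP calves in muscle, with 18.3, 20.5 and 29.9 CPM against 13.2, 10.8, 12.5 and 14.7 CPM. TIMM17B, a subunit of the inner membrane protein translocase, differed by 0.49 in liver and -0.26 in muscle. ANTKMT, which methylates the adenine nucleotide translocase, differed by 0.91 and -0.53. MACROD1 (ENSBTAG00000017181), a hydrolase that removes ADP-ribose from proteins, had 1549, 1543, 1300.0 and 1523 CPM in IVP and 1913, 2009.7 and 1932 CPM in MOET muscle. Its liver values were 111, 124, 116 and 209 CPM and 77.7, 80.0 and 94.1 CPM, so it too was lower in every IVP calf in muscle and higher in every IVP calf in liver.

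Other members belong to signalling and to lipid mediator synthesis. PRR5 (ENSBTAG00000039784), a subunit of the kinase complex mTORC2, had 24.7, 33.3, 24.5 and 23 CPM in IVP and 45.3, 53.7 and 55.8 CPM in MOET muscle. In liver it had 20.9, 24.9, 16.7 and 38.0 CPM in IVP and 11.6, 15.2 and 16.05 CPM in MOET calves, so the liver groups parted by a small gap and the muscle groups by a wide one. PTGES (ENSBTAG00000019453), a prostaglandin E synthase, had 1.52, 3.55, 1.97 and 2.78 CPM in IVP and 6.51, 5.76 and 6.97 CPM in MOET muscle. Its differences were 0.66 in liver and -1.27 in muscle. PRXL2B, which forms prostaglandin F2-type products, differed by 0.84 and -0.49.

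Further members act in splicing, chromatin and transcription. LUC7L3, which works with the U1 particle at the 5′ splice site, had 133, 134.13, 141 and 305 CPM in IVP liver and 89.6, 108 and 88.6 CPM in MOET liver, and 98.4, 92.2, 94.4 and 92.8 CPM and 100.2, 114 and 114 CPM in muscle. Calf 5841 was far above every other calf in liver, and in muscle the groups barely parted. U2AF1, which binds the 3′ splice site, differed by 0.56 and -0.39. ZNHIT1, a subunit of the SRCAP complex that places the histone H2A.Z, differed by 0.76 and -0.30. BANF1, which ties DNA to the nuclear envelope, had 281, 226, 260.5 and 273 CPM in IVP and 295, 299.6 and 358 CPM in MOET muscle. Its liver values were 72.2, 79.9, 79.8 and 131 CPM in IVP and 50.05, 67.6 and 59.7 CPM in MOET calves. MED29, a Mediator subunit, differed by 0.41 and -0.45.

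Protein turnover and transport were represented by subunits of several complexes. ANAPC15, a subunit of the anaphase-promoting complex, differed by 0.61 in liver and -0.26 in muscle, and RNF126, a ubiquitin ligase, by 0.61 and -0.23. TRAPPC5, part of a vesicle tether, had 27.5, 32.4, 30.0 and 59.7 CPM in IVP and 15.5, 19.2 and 20.5 CPM in MOET liver, and differed by -0.37 in muscle. SNF8, a subunit of ESCRT-II, and ATP6V1F, a subunit of the proton pump of acidic organelles, differed by 0.41 and 0.47 in liver and by -0.31 and -0.29 in muscle. UXT, a prefoldin-like chaperone, differed by 0.74 in liver and -0.28 in muscle.

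The antioxidant members were PRDX4, a peroxiredoxin of the endoplasmic reticulum, and HAGH, the second enzyme of the glyoxalase system. PRDX4 had 35.2, 44.5, 39.5 and 49.2 CPM in IVP and 26.6, 32.9 and 28.2 CPM in MOET liver, and 11.9, 11.9, 11.9 and 14.5 CPM and 17.7, 17.2 and 15.9 CPM in muscle. HAGH had 319, 347, 368 and 439.7 CPM in IVP and 252, 281 and 269.8 CPM in MOET liver, and 58.7, 54.9, 53.3 and 56.5 CPM and 62.7, 65.2 and 73.4 CPM in muscle. In both genes calf 5841 exceeded the next IVP calf in liver by less than in most members. Of the rest, MZT2B, a component of the gamma-tubulin ring complex, differed by 1.03 and -0.32, and MAGIX, a PDZ domain protein, by 0.48 and -0.61. MZT2B has a close paralog in mammals, and reads that the paralogs share make its level uncertain.

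The remaining 30 named members include DNA repair and transcription genes (MPG, INO80 subunit TFPT, PHIP, ZNF580, SCAND1, THAP3), vesicle and organelle genes (BLOC1S1, NAPA, SYS1, TMEM147, AUP1, PEX11G, TBC1D22A), the death receptor adaptor FADD, the calcium channel ORAI1, AMDHD2 of amino sugar metabolism, and DDRGK1 of the UFM1 system. The others are INAFM1, NCBP2AS2, PNKD, CDPF1, ARL6IP4, CUEDC2, CCDC107, WBP1, CNPY2, DGCR6L, MTDH, C25H7orf50 and MANBAL. INAFM1 had the largest liver difference of all members, 1.22, with 7.93, 10.3, 7.69 and 18.7 CPM in IVP and 3.69, 4.18 and 4.72 CPM in MOET liver, and was named after its values were seen. The 25 members without a name differed by 0.41 to 0.69 in liver, with a median of 0.49, and by -0.66 to -0.23 in muscle, with a median of -0.31.

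The values nearest to the thresholds show how close the choice was. In liver the named members just inside 0.4 were MPST at 0.407, LOC101903478 at 0.409 and SNF8 at 0.413, and the named genes just outside were TRMU at 0.398, ATP6V0D1 at 0.393 and DPM2 at 0.390. In muscle CHD2 and TMEM219 lay just inside at -0.203 and -0.207, and PHPT1, NAA10 and SREK1IP1 just outside at -0.199, -0.197 and -0.196. At the CPM minimum, TMEM25 in muscle had the lowest mean of a named member, 2.29 CPM. The lowest IVP calf lay above the highest MOET calf by a median of 0.14 in liver (range 0.0027 to 0.65), and the gap in muscle had a median of 0.080 (range 0.00021 to 0.63).

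Counts over all genes give the same contrast as the choice and are printed as description alone. The p-values of fits within 1 organ rest on the spread between these calves. Calf 3213 counts there as a full calf but lay nearly at the mean of the other MOET calves. Fits that keep it can therefore understate the spread between calves. Fits over both organs treat the 16 libraries of 8 calves as independent, with 1 shared spread, unless a calf block is named. With age as covariate, edgeR's quasi-likelihood test called 0 of the 100 members higher in IVP liver at a Benjamini-Hochberg FDR under 0.05, where 0.035% of the 14290 genes tested were called. At an unadjusted p under 0.05 there were 97 members, against 14.8% of all genes tested, and DESeq2 called 48 members and 5.3% of all genes. With single calves left out and age kept as covariate, the edgeR count was 86 without calf 3213 (7.34% of all genes), 58 without calf 5841 (4.32%) and 0 without any other. Without calf 3213 the ages ran from 98 to 104 days, and only calf 5841 was under 102 days. Age and calf 5841 can therefore hardly be told apart in that fit. Without the age covariate the edgeR count was 90 (11% of all genes) with all 8 calves and 0 (0.0347%) with calf 3213 left out. In muscle 3 members were called lower in IVP calves, against 0.187% of 12854 genes, and 88 had an unadjusted p under 0.05, against 8.43%. The 3 were DNLZ (log2 fold change -0.86 ± 0.14 SE), PRR5 (-0.98 ± 0.16 SE) and PTGES (-1.42 ± 0.25 SE), and the count was 9 without IVP calf 3209 (0.953% of all genes), 1 without MOET calf 5932 (0.0693%) and 0 without any other calf. In the fit over both organs, the IVP difference was more negative in muscle than in liver in 91 members, against 4.25% of 15237 genes. With the calf as a block this count was 57, against 1.81% of all genes. Without the block it was 0 of the members, and 0 of all genes, when MOET calf 3217, 3218 or 5932 was left out, 2 without IVP calf 3209 (0.0845% of all genes) and 7 without IVP calf 5833 (0.221%). The count was 100 without IVP calf 3208 (8.31%), 100 without MOET calf 3213 (6.96%) and 97 without IVP calf 5841 (5.18%).

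The full siblings have the same parents on both sides. They were among the calves used for the choice, so the direction of every member's difference was fixed in advance. IVP calves 3208 and 3209 against MOET calves 3217 and 3218 had a median member difference of 0.40 in liver and -0.31 in muscle. Of the 100 members, 42 met both thresholds on the difference. Over all expressed genes the medians were -0.04 and -0.01. IVP calves 5833 and 5841, by another sire and also used for the choice, differed from the same MOET calves by 0.76 and -0.26. Here 66 members were at both thresholds, and the medians over all expressed genes were -0.12 and 0.18. With 2 calves on each side, no test was run.

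Whether a member is more abundant in one organ than in the other was not part of the choice beyond the CPM minimum. Averaged over IVP and MOET calves, 59 members were lower and 23 higher in liver than in muscle, and 18 were not called. This was edgeR's quasi-likelihood test at an FDR under 0.05, with no calf block, so the pairing of organs within a calf was not modelled. Of all 15237 genes tested, 39.9% were lower and 44.7% higher in liver. Among the 9170 genes expressed in both organs, the class from which the members were drawn, 47.8% were lower and 35.7% higher. The median log2 difference of liver minus muscle was -0.53 over the members and -0.17 over the expressed genes. The counts lay between 56 and 67 lower and between 22 and 24 higher over all alternatives.

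The members higher in liver were led by TMEM25, a membrane protein of the immunoglobulin family, with a log2 difference of 6.25 ± 0.12 SE (adjusted p = 2.69e-17, edgeR's quasi-likelihood test). It had 342, 305, 294 and 422 CPM in IVP and 246, 225 and 227 CPM in MOET liver, and 1.76, 1.83, 2.40 and 2.15 CPM and 2.68, 2.58 and 2.64 CPM in muscle. PHGDH followed with 3.90 ± 0.40 SE (adjusted p = 8.29e-08 by the same edgeR test). Among the others were GAMT with 2.03 ± 0.16 SE and HAGH with 1.68 ± 0.10 SE. In each of these 4 genes every liver library was above every muscle library. PRDX4 was also higher in liver, by 0.59 ± 0.10 SE.

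At the other end, MACROD1 was 25.2-fold higher in muscle than in liver, with a log2 difference of -4.65 ± 0.17 SE (adjusted p = 9.41e-14, edgeR's quasi-likelihood test). Among the others were ANAPC15 with -3.21 ± 0.13 SE, BANF1 with -2.64 ± 0.14 SE and UQCC2 with -2.22 ± 0.18 SE. In all, 32 members were over 2-fold higher in muscle and 10 were over 2-fold higher in liver. The share of all expressed genes over 2-fold was not counted, so these counts show nothing particular to the members. POP7, MAGIX, TRMT61A, ANTKMT, RNF126, U2AF1, ZNHIT1 and LUC7L3 were among the 18 with no call between the organs. The members therefore held genes of both kinds of organ preference, as did the expressed genes, with 47.8% lower and 35.7% higher in liver.

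**Figure D4:**
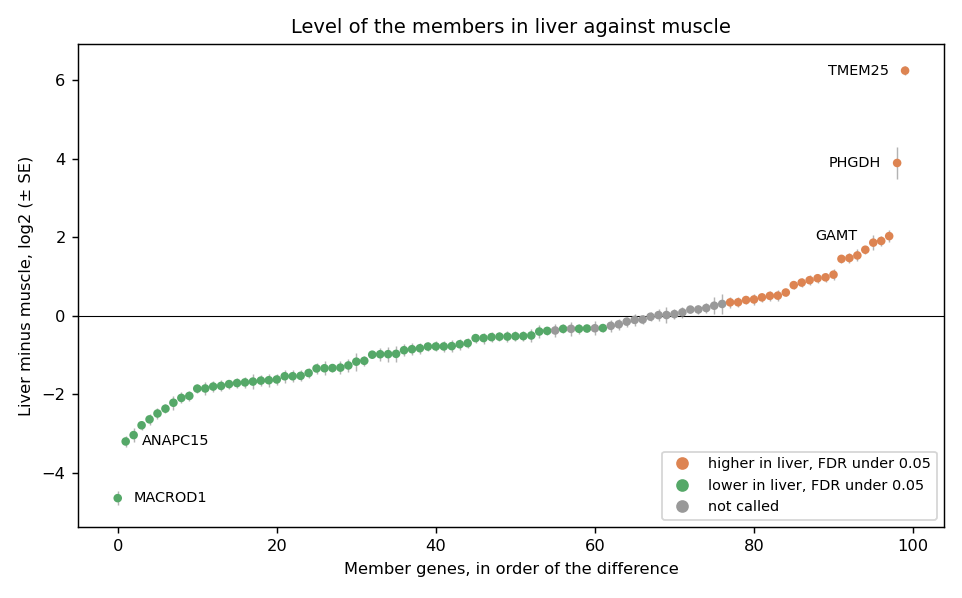
Liver minus muscle (log2, fitted by edgeR over 16 libraries, with the SE as a bar) of the 100 members in order of the difference, with 59 lower in liver in green, 23 higher in liver in orange and 18 not called in grey. TMEM25 and PHGDH stand apart at the top and MACROD1 at the bottom.

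The members were set against 16 lists of named genes of common functions, which hold 28 of them, and 13 lists hold at least 1. The share of members was 2.71% over all 2765 named expressed genes. The anaphase-promoting complex and cullin list held 4 of 21 (among them ANAPC15, RNF126 and ELOB), the chromatin list 4 of 22 (ZNHIT1, BANF1, INO80C and CHD2), and the splicing list 4 of 46 (LUC7L3, U2AF1, SF3B5 and SNRNP70). Mitochondrial import and assembly held 3 of 19 (UQCC2, TIMM17B and CHCHD7). Translation factors held 2 of 17, ribosome biogenesis 2 of 21, antioxidant and glyoxalase genes 2 of 19 and vesicle coats and tethers 2 of 58. The lists with 1 member were the tRNA synthetases (1 of 6), serine and one-carbon metabolism (1 of 8), the V-ATPase (1 of 11), the chaperonins and prefoldins (1 of 28) and the RNA polymerases (1 of 29).

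The ER membrane insertion and glycosylation list held 0 members of 24. In the fit over both organs, 14 of its genes were called more negative in muscle than in liver and 0 more positive. Of all genes tested, 4.25% were called more negative in muscle. The list holds only named genes, taken from tables of genes selected on these libraries, so that share is not a like measure. No gene was called more negative in muscle when MOET calf 3217, 3218 or 5932 was left out. The medians of the list were 0.26 in liver and -0.17 in muscle, neither of which reaches the thresholds of the choice. Actin and dynein genes held 0 of 16 and interferon-induced genes 0 of 17.

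The genes of the lists that were not members differed from list to list. With members removed, the median liver difference was 0.41 for the 19 ribosome biogenesis genes, 0.47 for the 27 chaperonin and prefoldin genes and 0.23 for the 42 splicing genes. In muscle these medians were -0.14, -0.01 and -0.09. For the 56 vesicle genes they were -0.03 in liver and -0.0035 in muscle, and for the 17 genes of the anaphase-promoting complex and cullin list -0.05 and -0.06. In 3 lists the median without members was above 0 in both organs, with 0.38 in liver and 0.13 in muscle for the 16 actin and dynein genes, 0.35 and 0.06 for the 16 mitochondrial import genes, and 0.24 and 0.14 for the 7 serine and one-carbon genes. Over all named expressed genes the medians were -0.01 in liver and 0.02 in muscle.

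The named members were mostly short genes. The RefSeq annotation of the ARS-UCD2.0 assembly gives a genomic span for 73 of the 75 named members, with a median of 6.41 kb and 63.0% of them under 10 kb. For all named expressed genes the median was 25.01 kb and 28.4% were under 10 kb. Because 73 of 100 members have a span, this holds for the named members and is void for the members as a whole. The named genes come from tables of genes selected on these libraries, so they are no independent sample of the expressed genes. The named genes higher in IVP liver that are not members had a median of 6.96 kb, those lower in IVP muscle 8.73 kb, and those of the mirror-image class 77.3 kb.

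Short named genes that are no members had medians on the same sides as the members. The 714 named expressed genes under 10 kb outside the pattern had a median difference of 0.37 in liver and -0.11 in muscle, the 1047 of 10 to 50 kb -0.04 and 0.02, and the 897 of 50 kb and over -0.51 and 0.16. In liver the mean of the short genes, relative to the MOET mean, was 0.20, 0.29, 0.25 and 0.59 in the 4 IVP calves, with MOET calves between -0.09 and 0.06. The mean of the genes of 50 kb and over was -0.22, -0.45, -0.42 and -0.75 in the IVP calves and ranged from -0.19 to 0.11 in the MOET calves. Calf 5841 was the extreme in both classes, as in the members. In muscle the short genes overlapped between the groups, with -0.09, -0.20, 0.10 and 0.02 in the IVP calves against -0.09 to 0.11 in the MOET calves. Across these 2658 genes, which share the libraries and their depth, the rank correlation of span with the difference was -0.56 in liver and 0.34 in muscle. They are named because the paper's tables list genes selected on these libraries. These medians and correlations therefore describe the named genes and do not carry over to all expressed genes. The part of gene span in the values of the members was not tested.

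**Figure D5:**
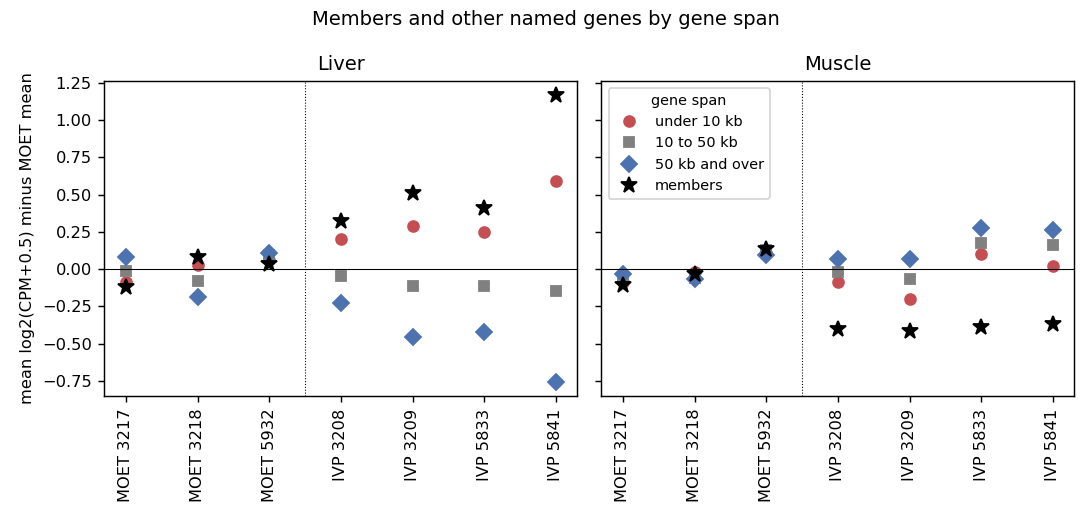
Mean log2(CPM+0.5) minus the mean of the 3 MOET calves for named genes outside the pattern with a RefSeq genomic span under 10 kb (714 genes), of 10 to 50 kb (1047) and of 50 kb and over (897), by calf, with the 100 members as stars. In liver the short genes and the members lie above 0 and the long genes below 0 in all 4 IVP calves, with calf 5841 the farthest in each case.

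The summed levels of some cell type markers parted the groups as well. Only markers with a name in the paper's tables were summed, and these tables list genes selected on these libraries. The named markers are therefore no independent sample of each marker list. In bulk tissue, fewer cells of a type cannot be told apart from less RNA per cell. In liver the sum of the 3 named hepatocyte markers of 10 lay between 11214 and 15396 CPM in IVP and between 7988 and 8945 CPM in MOET calves. The 4 named fibroblast markers of 8 summed to between 475 and 662 CPM in IVP and between 808 and 947 CPM in MOET liver, and the 5 named endothelial markers of 10 overlapped, at 303 to 461 CPM and 272 to 304 CPM. Within that list CLEC4G, CLEC14A and EGFL7 were higher and VWF was lower in every IVP liver than in every MOET liver. The 2 named lymphocyte markers of 10 summed to 30.96 to 34.7 CPM in IVP and 22.6 to 30.4 CPM in MOET liver, and CFTR, the 1 named cholangiocyte marker of 5, had 1.83 to 3.53 CPM and 4.53 to 5.43 CPM. Macrophage markers, 5 named of 10, overlapped in liver, at 1609.8 to 2451 CPM in IVP and 1260.0 to 1696 CPM in MOET calves. In muscle the 2 named slow-fibre markers of 7, MYH7 and ATP2A2, summed to between 5637 and 18847 CPM in IVP and between 2444 and 4462 CPM in MOET calves. The 5 named fast-fibre markers of 8 overlapped, at 40333 to 52862 CPM and 52148 to 59066 CPM. Within that list MYH2 was higher in every IVP calf, at 11218 to 17954 CPM against 6507 to 8757 CPM. TNNC2 and MYLPF were lower in every IVP calf, TNNC2 at 9541 to 16147 CPM against 18557 to 21097 CPM. Endothelial markers in muscle parted narrowly, at 175 to 332 CPM in IVP and 156 to 174 CPM in MOET calves. Hepatocyte markers in muscle summed to 3.42 to 34.4 CPM in IVP and 1.04 to 2.35 CPM in MOET calves. Only TTR parted the groups there, while APOA1 overlapped and APOA2 had 0 CPM in the libraries used. TTR had 31.9 CPM in calf 3209 and 2.30, 4.26 and 2.26 CPM in IVP calves 3208, 5833 and 5841. The MOET calves had 0.40 to 0.72 CPM. Macrophage and lymphocyte markers overlapped there. Fibroblast markers in muscle were lower in IVP calves, at 771 to 1079 CPM against 1227 to 1739 CPM. Markers of satellite cells, adipocytes and erythroid cells have no name in the tables used here. Their part, and that of the markers above, in the members' values was not tested.

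Some members are close neighbours. In the RefSeq order, NME3 and EME2 are separated by MRPS34 alone, and FIS1 and ZNHIT1 by CLDN15 alone, pairs that were named after their positions were seen. The libraries were not stranded, so reads of overlapping genes could not be assigned by strand. Of the 73 named members with a span, 21 (28.8%) overlap another annotated gene, against 37.4% of the other named expressed genes.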

How the data were processed

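The authors extracted polyadenylated RNA, filtered the unstranded 100-base read pairs with SOAPnuke, aligned these to bosTau9 using STAR 2.7, obtained counts of each Ensembl gene from HTSeq-count, and removed the effect of age using sva. The deposited values are whole numbers for 27607 IDs, used here as estimated counts because of that adjustment. The design had assumed counts, and rounding changed no value. The table holds no column of values outside the 16 libraries (0).

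CPM was taken by column total, and a pseudocount of 0.5 was added on the log2 scale, which understates the change of genes with few counts. Members and gene lists were chosen with earlier results of these data known. Names were taken from the paper's supplementary tables, which pair 4181 IDs with a name and list genes selected on these libraries. IDs were matched through gene numbers to a RefSeq table of ARS-UCD2.0 for names, order and span, and no coordinates are given because the builds differ.

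Fits used edgeR 4.0.16 in R 4.3.3 (filterByExpr, TMM, quasi-likelihood test, Benjamini-Hochberg threshold 0.05) over all genes, with age in days as covariate, calf 3213 included. Liver against muscle was fitted over 16 libraries, without a calf block in the main fit. DESeq2 1.42.0 was an alternative. When 200 genes were changed by 1 log2 unit in simulated data, 185 were recovered in liver and 175 in muscle. In the fit between the organs' IVP differences 84 were recovered, and between organs 190. The simulation gave every gene 1 fixed spread and had no outlying calf. The median member differences were smaller, at 0.56 in liver and -0.32 in muscle, so these recoveries do not carry over to the members. Each calf gave both organs, which pairs the libraries. The correlation between a calf's liver and muscle deviations from the means of its groups ran from -0.10 to 0.25 (median 0.088). Named genes were the 12 with the largest liver minus muscle difference at 10 CPM or more, the 6 with the highest mean CPM, up to 2 per list, and the 3 on each side of each threshold, and 1 gene under this rule is not reported here. Alternatives were the scaling, pseudocount, filter, age term, the omission of calves and the calf block. Added after seeing the data were the block without calf 3213, the omission of calves 5841 and 5932 together, and IVP calves 5833 and 5841 against MOET calves 3217 and 3218.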

Additional observations from a re-analysis of the deposited data

Results flagged for a closer look

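Among the genes named by rule and the mean over the members, 64 groups of 4 IVP calves were examined for a calf far from the others by Dixon's ratio, the gap to the nearest calf over the whole range. The ratio was above its 95% critical value for 4 samples in 20 groups. Chance gives about 1 in 20 groups in genes not chosen by their values. These genes were chosen from the same IVP values, so that rate is no benchmark for them. In liver all 15 groups above the critical value had calf 5841 at the top. Among the ratios were 0.897 for UQCC2, 0.855 for MZT2B, 0.847 for TRAPPC5, 0.931 for EIF2S2, 0.870 for MACROD1, 0.928 for MAGIX, 0.853 for TSR3, 0.971 for ZNHIT1, 0.951 for LUC7L3, 0.910 for U2AF1, 0.868 for BANF1, 0.843 for MED29, 0.830 for ATP6V1F and 0.916 for SNF8. Over all 100 members the ratio was above the critical value in 34 in liver. The groups share the libraries and are not independent.

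In muscle there were 5 such groups with no single calf in common. Calf 3209 was apart in PRR5 (0.839) and MED29 (0.866), calf 5833 in UQCC2 (0.832) and MACROD1 (0.894), and calf 5841 in PRDX4 (0.969).

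The IVP minus MOET difference was more negative in muscle than in liver in 91 of the 100 members (edgeR's quasi-likelihood test, FDR under 0.05), against 4.25% of the 15237 genes tested. The count was 57 with the calf as a block and 0 without MOET calf 3217, 3218 or 5932. The choice of members used the same values, so this is a description of them.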

How the results depend on the processing

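The rule found 100 members, and 224 with TMM-scaled CPM, of which 84 were among the 100. When a calf was left out it found between 64 (without calf 5841) and 175 (without calf 3208), with 165 without calf 5833 and 158 without calf 3217. The count called higher in IVP liver was 0, and 0 to 86 when a calf was left out with age kept as covariate. It became 90 with no age covariate (11% of all genes tested) and 48 with DESeq2's Wald test (5.3%). With calf 3213 left out and no age covariate it was again 0 (0.0347%). In muscle it was 3, and became 66 with no age covariate (3.56% of all genes), 5 with calf 3213 left out and no age covariate (0.267%), 6 with no filter on low counts (0.333%) and 30 with DESeq2 (1.54%), with 0 to 9 when a calf was left out. For the difference between the organs it was 91, with 0 to 100 when a calf was left out (0 to 8.31% of all genes) and 100 with no age covariate (14.1%). With the calf as a replicate block, which pairs the libraries of a calf, it was 57 (1.81% of all genes). The block left the counts between liver and muscle at 23 higher and 62 lower. The cause of these changes was not tested. Under every alternative run for them, the median differences moved by less than the SD between calves, 0.30 in liver and 0.080 in muscle. This is a weak criterion in liver, where calf 5841 widens the SD. Without that calf the liver median was 0.39 rather than 0.56. The counts of liver against muscle moved by less than 1.5 times. Among the full siblings alone the rule found 143 genes, 42 of them members. The depth was similar in all libraries, the counts carry an age adjustment that cannot be undone here, and 3 usable MOET calves limit the precision.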
